A study of Mus musculus with 24 samples.

Results

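Cultured mouse organs of Corti (OCs) that had been exposed to pioglitazone (PIO) and gentamicin (GM) together for 24 h were compared with OCs exposed to gentamicin alone for 24 h. The comparison held 6 of the 24 libraries of the series, 3 on each side, and took in all 16317 genes that passed the filter on low counts, of 24454 in the table. The OC is the sensory epithelium of the cochlea with its hair cells (HCs), supporting cells and attached nerve, connective and vascular tissue. All explants came from 5-day-old wild-type C57BL/6N pups of both sexes and were kept for 24 h in serum-containing medium with penicillin before treatment. The groups were PIO+GM (10 μM pioglitazone with 50 μM gentamicin, 24 h) and GM (50 μM gentamicin, 24 h). For side-by-side values, CTRL (medium without drugs, 24 h), PIO (10 μM pioglitazone, 24 h) and the GM and PIO+GM groups at 6 h were also used, each with 3 libraries. The study's methods give 6 OCs per condition in separate wells, RNA from 6 OCs per condition, and triplicate treatments. They do not state how animals and culture days were divided among the libraries. The p-values therefore measured only the spread between 3 libraries per group, which were not stated to come from separate animals or culture days. The series was designed to find which signalling pathways pioglitazone alters in explants exposed to the ototoxic antibiotic gentamicin.

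Pioglitazone is a thiazolidinedione agonist of the nuclear receptor PPAR-γ. PPARs bind DNA as partners of RXR and switch on genes for fatty acid uptake, mitochondrial β-oxidation and lipid droplet handling, and they can also restrain inflammatory transcription. Type I interferons act through JAK kinases, STAT proteins and IRF9 on a short promoter element, the interferon-stimulated response element, and so raise a common set of antiviral genes. Gentamicin is an aminoglycoside that enters and kills auditory HCs.

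The 6 libraries held 11961078 to 15206208 counts each, so that 3 counts corresponded to 0.197 to 0.251 CPM (counts scaled to library size). No library repeated another: for each pair within a group the mean chi-square over genes was 11.5 to 55.1, where counting error alone gives about 1. The libraries numbered 2 stood apart in both groups: their mean level of the stria vascularis and melanocyte markers was 5.11 (GM) and 4.83 (PIO+GM) log2 CPM, against 2.55 to 3.59 in the other 4. Library 2 was also the highest in CTRL and PIO at 24 h, at 5.23 and 4.78 log2 CPM. What the libraries of 1 number share is not stated. Y-linked genes averaged −2.32 log2 CPM in GM library 3 and 4.98 to 6.49 in the other 5, so the libraries differed in sex makeup. Their part in the results was not tested beyond the fits given below.

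Of the 16317 genes, 18 passed an adjusted p of 0.05 between PIO+GM and GM at 24 h (0.110% of those tested), 4 of them higher with pioglitazone (0.0245%) and 14 lower (0.0858%). The higher genes Angptl4, Cpt1a and Acadl are known PPAR targets of lipid metabolism. The 14 lower genes included the matrix genes Postn and Ecm2 and the genes Grm7, Unc13c and Plppr5. The 3 libraries of one group did not overlap those of the other for any of the 18 genes, as for 9.84% of all genes on the higher side and 8.57% on the lower. When the trend of fold change with GC content was removed, 59 genes passed, 28 higher and 31 lower; the fold changes correlated with transcript GC across 15390 genes (Spearman's rho −0.24, all from the same 6 libraries).

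**Figure D1:**
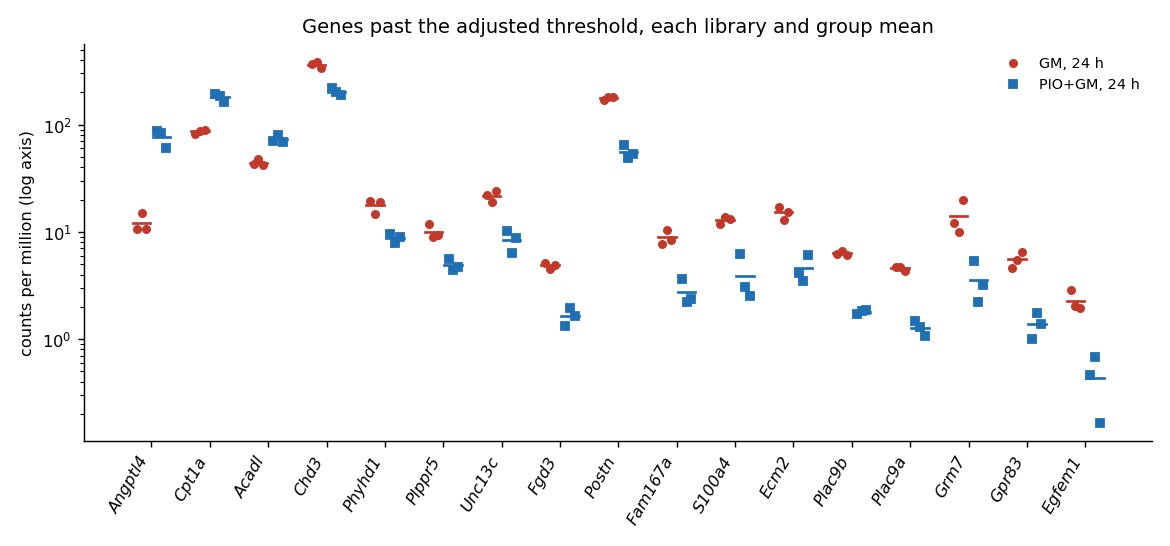
Each point is 1 library, in CPM on a log axis, for 17 of the 18 genes past the adjusted threshold, with GM at 24 h as circles and PIO+GM at 24 h as squares; horizontal lines are the means of 3 libraries. The 3 genes at the left (Angptl4, Cpt1a, Acadl) were higher in every PIO+GM library than in any GM library, and the other 14 were lower in every PIO+GM library.

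Cpt1a (Entrez 12894, chr19:3322326-3385735, GRCm38) encodes the carnitine palmitoyltransferase that admits long-chain fatty acids to mitochondria, the rate-limiting step of β-oxidation. Its level was 82.4, 87.6 and 88.9 CPM in the GM libraries and 191, 184 and 164 CPM in the PIO+GM libraries. The means were 86.3 ± 3.4 and 180 ± 14.3 CPM (SD, n = 3), and the fitted difference was 1.06 ± 0.119 on the log2 scale (SE), or 2.08-fold, with an adjusted p of 0.00041. Both groups were tight and lay far apart. Cpt1a was the one gene that stayed past the threshold under all 20 alternative settings.

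Angptl4 (Entrez 57875, chr17:33774900-33781575) encodes a secreted inhibitor of lipoprotein lipase and is among the genes most readily induced by PPAR agonists. Its level was 10.6, 15.1 and 10.7 CPM with GM and 87.8, 83.6 and 60.8 CPM with PIO+GM, a 6.38-fold difference (log2 2.67 ± 0.419, adjusted p = 0.0137). Acadl (Entrez 11363, chr1:66830839-66863309), the long-chain acyl-CoA dehydrogenase of β-oxidation, was at 42.7, 47.7 and 42.2 CPM with GM and 70.6, 79.8 and 68.1 CPM with PIO+GM (1.65-fold, log2 0.72 ± 0.119, adjusted p = 0.0226). Of these 3 genes, Angptl4 had the largest fold change and Acadl the smallest, and neither overlapped between the groups.

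The wider list of PPAR targets and lipid handling genes had 44 tested members, of which 32 were higher and 12 lower in PIO+GM, with a median log2 difference of 0.22 against 0.00 over all genes. Of its members 4 passed the adjusted threshold, the 3 genes above among them, 13 were higher at an unadjusted p under 0.05 (445 of all genes, 2.73%) and 2 were lower (774 of all genes, 4.74%). Pdk4, the kinase that shuts off pyruvate dehydrogenase when fat is burned, lay just outside: it was at 7.11, 7.09 and 10.9 CPM with GM and 24, 24.7 and 28.4 CPM with PIO+GM (log2 1.61 ± 0.327, adjusted p = 0.0623). Eci2, an isomerase of unsaturated fatty acid oxidation, was at 73.1, 73.3 and 74.1 CPM with GM and 108, 102 and 106 CPM with PIO+GM (log2 0.52 ± 0.136, adjusted p = 0.198). The groups did not overlap for either gene, and both passed when the replicate numbers were fitted as a block. The 2 members with lower values at an unadjusted p under 0.05, named after their values were seen, were the lipid droplet coat gene Plin4 (log2 −1.37 ± 0.418, unadjusted p = 0.00378) and the fatty acid binding protein gene Fabp5 (log2 −0.43 ± 0.191, unadjusted p = 0.0365). Their adjusted p-values were 0.325 and 0.618.

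The receptors themselves, named here for their role, did not pass. Pparg, the receptor for pioglitazone, was scarce, at 1.49, 0.811 and 1.94 CPM with GM and 1.65, 0.909 and 1.8 CPM with PIO+GM, and the groups overlapped (log2 0.04 ± 0.396, adjusted p = 0.993). Ppara was at 9.49 to 13.4 CPM and Ppard at 15.2 to 25.6 CPM over the 6 libraries, with log2 differences of −0.18 ± 0.162 and −0.17 ± 0.28. Among the 16 tested receptors and cofactors, 11 were higher and 5 lower, none with an unadjusted p under 0.05, and none was called by DESeq2 or by edgeR's likelihood ratio test. The lowest unadjusted p was 0.0852, for the corepressor Ncor1 (log2 0.16 ± 0.0901).

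Among the genes of the liver X receptors (LXRs), nuclear receptors that switch on cholesterol export from cells, 8 of 12 tested members were higher and 4 lower, with a median of 0.12 on the log2 scale that was −0.04 without PIO+GM library 1. Abca1, the main cholesterol exporter, was at 597, 578 and 378 CPM with GM and 1020, 903 and 729 CPM with PIO+GM, without overlap (log2 0.77 ± 0.205, adjusted p = 0.224). It was the only member with an unadjusted p under 0.05 (2.73% of all genes were higher at that p), and DESeq2 called it. The sterol synthesis list showed the other sign in 21 of 25 members, with a median of −0.14. Among them was Fdps, farnesyl diphosphate synthase (log2 −0.39 ± 0.173, unadjusted p = 0.0363), and no member was called by edgeR or DESeq2.

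Of the 14 lower genes, Postn (Entrez 50706, chr3:54359267-54391041) was the most abundant after Chd3 in CPM, a scale that is not corrected for gene length. It encodes periostin, a matricellular protein of connective tissue. It was at 171, 182 and 180 CPM with GM and 64.3, 48.3 and 52.8 CPM with PIO+GM, and thus 3.22-fold lower (log2 −1.69 ± 0.292, adjusted p = 0.0342). Ecm2, another extracellular matrix protein gene, was at 17.2, 13 and 15.3 CPM with GM and 4.1, 3.48 and 6.13 CPM with PIO+GM (log2 −1.73 ± 0.321, adjusted p = 0.0372). S100a4, a calcium-binding protein gene of fibroblasts and motile cells, was at 11.9, 13.7 and 13.3 CPM with GM and 6.16, 3.03 and 2.54 CPM with PIO+GM (log2 −1.72 ± 0.302, adjusted p = 0.0346). Neither gene's groups overlapped.

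The placenta-specific 9 genes Plac9a and Plac9b had the lowest adjusted p after Cpt1a, 0.00536 for both. Plac9a was at 4.71, 4.73 and 4.34 CPM with GM and 1.46, 1.29 and 1.06 CPM with PIO+GM (log2 −1.84 ± 0.262), and Plac9b at 6.28, 6.69 and 6.07 CPM with GM and 1.72, 1.82 and 1.88 CPM with PIO+GM (log2 −1.81 ± 0.26). They are near-identical copies on chromosome 14 and may share reads, so they should be counted as 1 result whose split between the copies is uncertain.

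Grm7, Unc13c and Plppr5 were also among the called genes. Grm7, a presynaptic metabotropic glutamate receptor, was at 12.2, 9.86 and 19.7 CPM with GM and 5.36, 2.2 and 3.19 CPM with PIO+GM (log2 −1.95 ± 0.374, adjusted p = 0.0397). Unc13c, which primes synaptic vesicles, was at 22, 18.8 and 24.1 CPM with GM and 10.2, 6.29 and 8.75 CPM with PIO+GM (log2 −1.36 ± 0.252, adjusted p = 0.0372). Plppr5, a membrane protein of growing neurites, was at 11.8, 8.99 and 9.34 CPM with GM and 5.56, 4.39 and 4.74 CPM with PIO+GM (log2 −1.03 ± 0.186, adjusted p = 0.0371). All 3 were lower in every PIO+GM library than in any GM library.

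The other lower genes had adjusted p-values between 0.0371 and 0.0397. Chd3, a chromatin remodeller of the NuRD complex, was at 368, 383 and 339 CPM with GM and 219, 203 and 188 CPM with PIO+GM (log2 −0.84 ± 0.158). Gpr83, an orphan-like G protein-coupled receptor gene, averaged 5.53 ± 0.96 CPM with GM and 1.38 ± 0.375 CPM with PIO+GM (log2 −2.01 ± 0.375). Fgd3, an exchange factor for the small GTPase Cdc42, averaged 4.86 ± 0.307 and 1.64 ± 0.323 CPM (log2 −1.56 ± 0.29). Phyhd1, an oxygenase related to phytanoyl-CoA hydroxylase, averaged 17.7 ± 2.56 and 8.77 ± 0.906 CPM (log2 −1.01 ± 0.194). Fam167a averaged 8.88 ± 1.46 and 2.74 ± 0.788 CPM (log2 −1.69 ± 0.302). Egfem1 was near the detection limit with PIO+GM, at 0.463, 0.682 and 0.164 CPM against 2.89, 2.03 and 1.94 CPM with GM (log2 −2.34 ± 0.447).

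These calls rested on few libraries. Without 1 library at a time, 1 to 8 genes passed: 3 without each of the GM libraries in turn, 8 without PIO+GM library 1, 1 without PIO+GM library 2 and 2 without PIO+GM library 3. With only the 6 libraries in the model 3 passed, and with Y-linked expression as a covariate 4 passed, while all 18 fold changes kept their sign under every alternative. Without both libraries numbered 2, which were rich in stria markers, 1 gene passed (Cpt1a), the type I interferon effectors were lower in 48 of 48 members (median −1.13), the mesenchyme and collagen list had a median of −0.39 and the PPAR targets one of 0.17.

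The type I interferon effectors had the median farthest from 0 of the 26 lists other than the Y-linked one, but no single member passed the adjusted test. All 48 tested type I interferon effectors were lower in PIO+GM, 26 of them at an unadjusted p under 0.05 (4.74% of all genes), and the libraries did not overlap for 20 (8.57% of all genes were lower without overlap, and 9.84% higher). Their median log2 difference was −0.95, with quartiles of −1.41 and −0.67. These genes are known to respond to the same signal, so they do not count as 48 observations. The mean level of the list was 3.85, 2.87 and 3.53 log2 CPM in the GM libraries and 2.79, 2.43 and 2.05 log2 CPM in the PIO+GM libraries. The lowest GM library, number 2, was thus only just above the highest PIO+GM library, number 1. DESeq2 called 1 member lower, of 82 genes it called lower in all, and the likelihood ratio test none. The median lay between −1.15 and −0.74 over the 20 alternatives, and 46 of 48 members were lower without GM library 1 or without PIO+GM library 3.

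**Figure D2:**
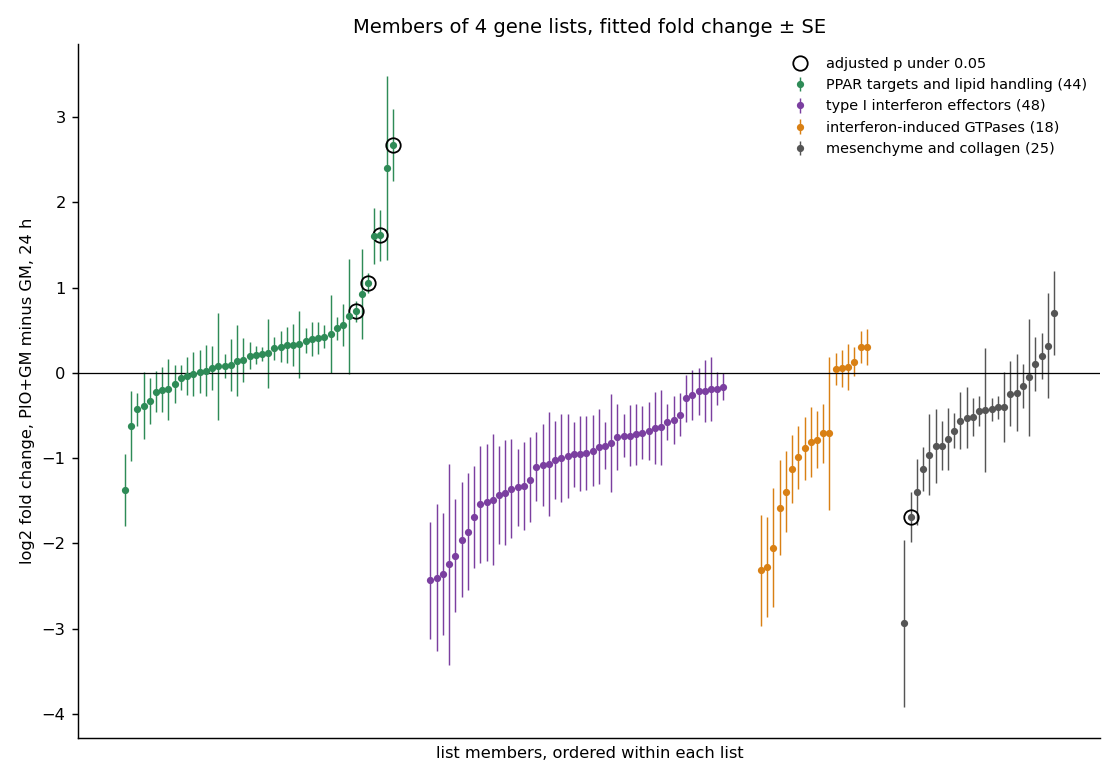
Each point is a tested member of 1 of 4 lists, ordered by its fitted log2 fold change (PIO+GM minus GM at 24 h), with bars of ± 1 SE; black circles mark an adjusted p under 0.05. All 48 type I interferon effectors lie below 0, and 4 PPAR targets are circled. The SE was derived from the test statistic, so a circled gene has a narrow error for its size by definition.

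Ifit3, an antiviral RNA-sensing cofactor, was at 40.2, 9.12 and 32.6 CPM with GM and 7.94, 4.7 and 3.19 CPM with PIO+GM (log2 −2.35 ± 0.715, adjusted p = 0.325). Its neighbour and near-copy Ifit3b was at 23.1, 4.66 and 17.2 CPM with GM and 4.04, 2.05 and 2.13 CPM with PIO+GM (log2 −2.43 ± 0.685, adjusted p = 0.262), and reads may be shared between both. Mx1, a dynamin-like restriction factor, was at 12.8, 2.63 and 7.41 CPM with GM and 2.78, 0.985 and 1.31 CPM with PIO+GM, with overlap (log2 −2.14 ± 0.664, adjusted p = 0.342). For all 3 genes GM library 2 was well below the other GM libraries. Ifitm1, a membrane protein that blocks viral entry, was at 43, 34.6 and 64.4 CPM with GM and 29.8, 21.8 and 27 CPM with PIO+GM (log2 −0.85 ± 0.275, adjusted p = 0.383).

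The interferon genes that the study examined by name had values on the same side. Isg15, a ubiquitin-like modifier, was at 7.36, 3.11 and 4.74 CPM with GM and 2.58, 1.29 and 0.736 CPM with PIO+GM, without overlap (log2 −1.69 ± 0.599, adjusted p = 0.456). Usp18, the protease that removes Isg15 and dampens interferon signalling, was at 17.2, 3.58 and 11 CPM with GM and 7.41, 1.74 and 1.55 CPM with PIO+GM (log2 −1.54 ± 0.688, adjusted p = 0.62). Ifi44 was at 14.2, 3.58 and 7.67 CPM with GM and 5.03, 2.88 and 1.55 CPM with PIO+GM (log2 −1.41 ± 0.615, adjusted p = 0.602). For Usp18 and Ifi44 the groups overlapped through GM library 2. Usp18 was also much higher in PIO+GM library 1 than in the other PIO+GM libraries. Its log2 difference lay between −2.67 and −1.01 over the 20 alternatives. Irf7, the transcription factor that amplifies the interferon response, was at 13.6, 4.8 and 12.7 CPM with GM and 8.01, 6.21 and 3.52 CPM with PIO+GM (log2 −0.80 ± 0.608, adjusted p = 0.858).

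Of the interferon-induced GTPases, which attack vacuoles that hold pathogens, 12 of 18 tested members were lower and 6 higher, with a median of −0.80. Of these, 9 were lower at an unadjusted p under 0.05 (4.74% of all genes), none passed the adjusted test, and DESeq2 called 2 of them among 112 genes in all. Tgtp2 was at 7.77, 1.35 and 1.47 CPM with GM and 0.86, 0.606 and 0.654 CPM with PIO+GM (log2 −2.28 ± 0.584, adjusted p = 0.19), so its GM level was carried by library 1. Ifi47 was at 4.13, 1.69 and 3.07 CPM with GM and 0.86, 0.379 and 0.491 CPM with PIO+GM (log2 −2.31 ± 0.648, adjusted p = 0.259). Gbp2, a guanylate-binding protein gene, was at 12.7, 10.1 and 17 CPM with GM and 5.63, 4.7 and 4.83 CPM with PIO+GM (log2 −1.39 ± 0.477, adjusted p = 0.425). The groups did not overlap for any of these 3.

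The promoter windows of these genes (300 bases, 250 before to 50 after the start site; RefSeq, GRCm38.p6) were searched on both strands for GAAA, any 2 bases and GAAA again, the core of the interferon-stimulated response element. It was found in 19 of the 36 type I interferon effectors with a window and in 9 of the 10 GTPases with one, against 3.99% of all 27025 genes with a window and 1 of 34 genes of the PPAR target list. A match describes letters only. The match nearest the start site is shown for 5 named members whose libraries did not overlap, to let the shared element be seen; each run is read 5′ to 3′ on the strand of the gene, with the matched letters in capitals, and a pair of TTTC runs is the same element on the other strand.
Ifit3 (chr19:34583397-34583426, + strand): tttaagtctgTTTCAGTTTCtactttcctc
Ifit3b (chr19:34607793-34607822, + strand): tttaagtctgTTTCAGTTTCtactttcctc
Isg15 (chr4:156200865-156200894, − strand): aaaggaaaccGAAACAGAAAatagctctgg
Gbp2 (chr3:142620594-142620623, + strand): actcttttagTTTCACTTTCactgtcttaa
Tgtp2 (chr11:49064263-49064292, − strand): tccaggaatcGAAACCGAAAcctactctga
The runs of Ifit3 and Ifit3b are the same 30 letters. The corresponding core of a PPAR element, the direct repeat of GGNCA, any base and AGGNC on both strands, was in 2.48% of all genes with a window and in none of the 34 PPAR target list genes with a window, Cpt1a and Acadl included. With so rare a match, 0 of 34 cannot be told from the share over all genes. Angptl4 had no window. Of the 14 called genes with a window, 1 held the repeat (7.14%) and 0 the interferon element.

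In the STAT, IRF and interferon receptor list 21 of 31 members were lower and 10 higher, with a median of −0.14, and none had an unadjusted p under 0.05 or was called by DESeq2. Pias1, a protein that inhibits activated STAT proteins, was at 76.5, 71.8 and 71.7 CPM with GM and 83.5, 81.8 and 87.5 CPM with PIO+GM, a narrow gap without overlap (log2 0.20 ± 0.118, adjusted p = 0.761). Irf3, a sensor-activated transcription factor, was at 34.2 to 46.6 CPM with GM and 37.5 to 46.3 CPM with PIO+GM, and its log2 difference of 0.00 ± 0.178 had no stable sign.

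Toll-like receptors sense microbial and damage signals. In the list of their signalling genes, which holds the receptors with their adaptors, kinases and other partners, 21 of 27 tested members were lower and 6 higher. The list's median was −0.13, which was −0.06 without GM library 2 and −0.28 without PIO+GM library 2. None passed the adjusted test or DESeq2. Tlr4 was at 30.3, 32.9 and 41.3 CPM with GM and 33.8, 29.1 and 28 CPM with PIO+GM (log2 −0.20 ± 0.23), and Tlr2 at 9.68, 11.4 and 12.9 CPM with GM and 8.87, 11.4 and 8.67 CPM with PIO+GM (log2 −0.23 ± 0.274). Both overlapped, as did their adaptors Myd88 (log2 −0.20 ± 0.304) and Tirap, also called Mal (log2 −0.20 ± 0.173). The 3 members with an unadjusted p under 0.05 were the ubiquitin ligase Traf6 (log2 0.24 ± 0.0987), the kinase Ikbke (log2 −0.32 ± 0.148) and the inhibitory kinase-like Irak3 (log2 −0.44 ± 0.2). With 1 higher and 2 lower of 27, these counts were near the shares over all genes, 2.73% and 4.74%.

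**Figure D3:**
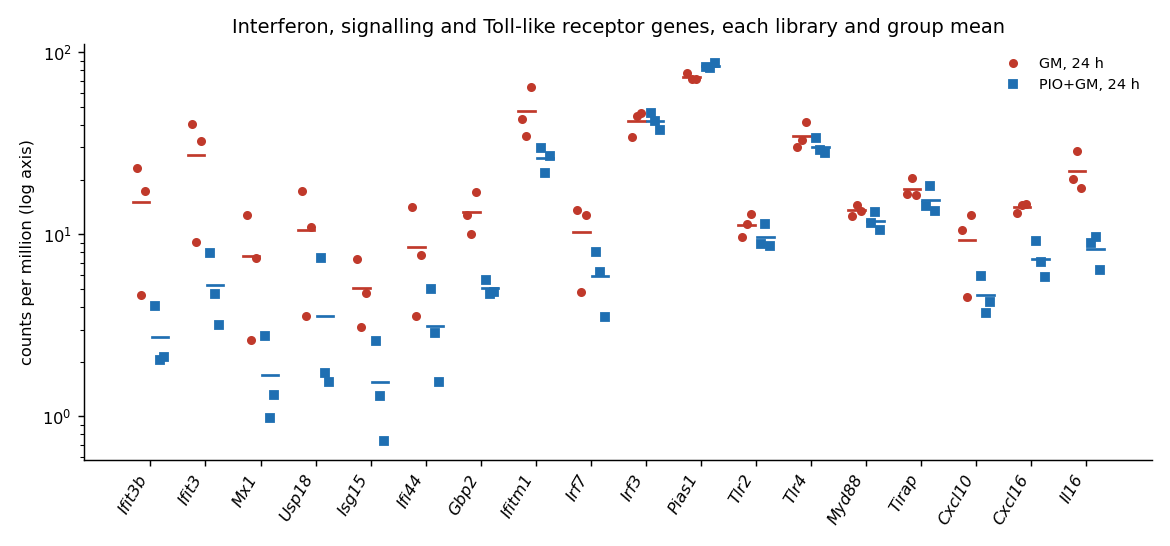
Each point is 1 library, in CPM on a log axis, for interferon, STAT, Toll-like receptor and cytokine genes, with GM at 24 h as circles and PIO+GM at 24 h as squares; horizontal lines are the means of 3 libraries. The interferon effectors on the left spread widely within GM, while Tlr2, Tlr4, Myd88, Tirap and Irf3 overlapped between the groups.

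Of 35 tested chemokines and cytokines, 25 were lower and 10 higher, with a median of −0.38, and none passed the adjusted test. That median was −0.20 without GM library 1 and −0.12 with no filter on low counts. Il16, a chemoattractant cytokine of CD4+ cells, was at 20.2, 28.8 and 18 CPM with GM and 9, 9.62 and 6.38 CPM with PIO+GM (log2 −1.42 ± 0.336, adjusted p = 0.118), and was the 1 member that DESeq2 called. Cxcl16, a membrane-bound chemokine and scavenger receptor, was at 13.1, 14.5 and 14.7 CPM with GM and 9.2, 7.04 and 5.81 CPM with PIO+GM (log2 −0.94 ± 0.276, adjusted p = 0.292). Neither overlapped. Cxcl10, an interferon-induced chemokine, was at 10.6, 4.53 and 12.8 CPM with GM and 5.89, 3.71 and 4.25 CPM with PIO+GM (log2 −1.01 ± 0.785), and Ccl2, Ccl9 and Ccl12 were at 4.22 CPM or below in all 6 libraries.

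Complement genes were lower in 20 of 25 tested members, with a median of −0.27. Serping1, the C1 inhibitor that holds back the classical pathway, was at 21.8, 20.5 and 24 CPM with GM and 10.5, 9.77 and 10.1 CPM with PIO+GM, with tight groups and an adjusted p of 0.0657 (log2 −1.12 ± 0.235), and DESeq2 called it. C1s1, a protease of the same pathway, had a log2 difference of −0.78 ± 0.359 (adjusted p = 0.655). Without GM library 2 the list's median was −0.09 and without PIO+GM library 2 it was −0.50, so 1 library at a time decided its size. Antigen presentation genes were lower in 20 of 26 members, with a median of −0.18 (−0.28 to −0.06 over the alternatives). Of these, 4 had an unadjusted p under 0.05 (4.74% of all genes were lower at that p). They were the class II genes H2-Aa, H2-Eb1 and Cd74, at 3.72 CPM or below in all 6 libraries, and Nlrc5, the activator of class I genes (log2 −1.26 ± 0.536).

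Macrophage markers were lower in 27 of 30 members, with a median of −0.34 (−0.75 to −0.07 over the alternatives), beside these immune genes. Their summed level was 224.5, 443.7 and 246.7 CPM in the GM libraries and 216.8, 429.1 and 144.3 CPM in the PIO+GM libraries, so library 2 was high on both sides and the groups overlapped. The defining markers Csf1r and Adgre1 were detected in all 6 libraries, at 10.9 to 51.4 and 6.3 to 25.3 CPM. Folr2, a folate receptor of resident macrophages, was at 0.992, 1.96 and 1.2 CPM with GM and 0.132, 0.53 and 0.327 CPM with PIO+GM (log2 −2.07 ± 0.533, adjusted p = 0.193). In RNA from whole explants, fewer cells of a type and less RNA per cell cannot be told apart, and the part of macrophage content in the immune gene values was not tested.

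In the mesenchyme and collagen list 21 of 25 members were lower, with a median of −0.44 (−0.61 to −0.36 over the alternatives). Of these, 11 had an unadjusted p under 0.05 (4.74% of all genes were lower at that p). Postn was the only one past the adjusted test of edgeR's quasi-likelihood fit (0.0858% of all genes were called lower). DESeq2 called 3, of 82 genes it called lower in all, and the likelihood ratio test called 2, of 64. The summed level was 20810, 23360 and 17390 CPM with GM and 16650, 13960 and 13890 CPM with PIO+GM, without overlap. Col3a1, a fibrillar collagen, was at 2130, 2580 and 1320 CPM with GM and 1020, 1000 and 740 CPM with PIO+GM (log2 −1.13 ± 0.258, adjusted p = 0.11). Col6a3 was at 536, 709 and 234 CPM with GM and 160, 278 and 125 CPM with PIO+GM, with overlap (log2 −1.40 ± 0.391, adjusted p = 0.259), and the intermediate filament gene Vim was at 679, 875 and 678 CPM with GM and 479, 529 and 389 CPM with PIO+GM (log2 −0.68 ± 0.206, adjusted p = 0.325). The pericyte proteoglycan gene Cspg4 was at 75.8, 80.5 and 50.2 CPM with GM and 34.5, 28.1 and 27.1 CPM with PIO+GM (log2 −1.20 ± 0.367, adjusted p = 0.325), in an endothelial cell and pericyte list with 15 of 16 members lower and a median of −0.43, which was −0.07 without GM library 2 and −0.68 without PIO+GM library 2. Among those endothelial genes, Pecam1 and Cdh5 were detected in all 6 libraries.

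HC markers were lower in 31 of 36 tested members, with a median of −0.29 (−0.44 to −0.19 over the alternatives), and none passed the adjusted test or DESeq2. Their mean level was 4.07, 3.60 and 4.34 log2 CPM with GM and 3.63, 3.11 and 4.04 log2 CPM with PIO+GM, so the groups overlapped. Each PIO+GM library lay below the GM library of the same number, though the numbers were not taken to pair libraries. Pou4f3, the transcription factor that HCs need to survive, was at 12.3, 12.7 and 21.2 CPM with GM and 8.8, 4.7 and 10.1 CPM with PIO+GM (log2 −0.97 ± 0.373, adjusted p = 0.506). The transcription factor genes Gfi1 and Barhl1 had log2 differences of −0.87 ± 0.314 and −1.20 ± 0.356, both without overlap and with adjusted p-values of 0.474 and 0.293. Myo7a, the HC myosin, was at 55.8 to 96.1 CPM over the 6 libraries (log2 −0.33, unadjusted p = 0.18). In GM against CTRL the list's median was −0.36. Pou4f3, Gfi1 and Barhl1 nevertheless averaged 15.4, 8.77 and 3.36 CPM in GM, above 11.3, 6.66 and 2.94 CPM in CTRL. The study counted HCs by phalloidin staining and reported them almost fully preserved with both drugs, a measure unlike RNA level.

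**Figure D4:**
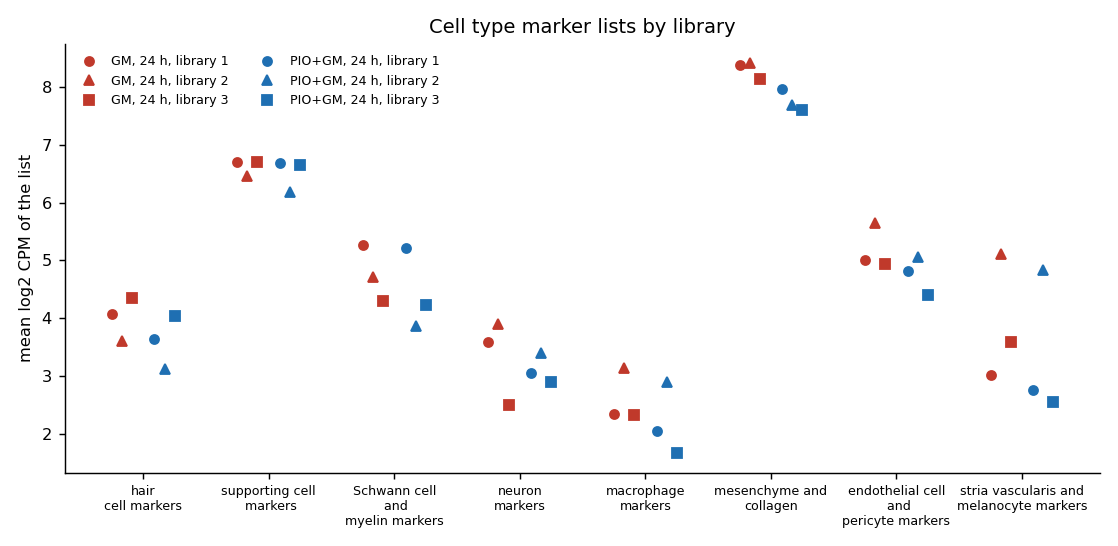
Each point is the mean log2 CPM of a cell type marker list in 1 library, with GM at 24 h in red and PIO+GM at 24 h in blue; circles, triangles and squares are libraries 1, 2 and 3. The mesenchyme and collagen list is the one with no overlap between the groups, and library 2 is the highest of its group for stria vascularis and melanocyte markers and for macrophage markers.

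The supporting cell markers were lower in 16 of 27 members and higher in 11, with a median of −0.03, and their defining genes Sox2 and Prox1 were at 35.1 to 90.1 and 11.3 to 15 CPM. Schwann cell and myelin markers were lower in 15 of 21 members (median −0.20), with Gldn, which clusters sodium channels at nodes, at the lowest p (log2 −1.18 ± 0.488, adjusted p = 0.56). Neuron markers were lower in 19 of 21 members (median −0.36). Gap43, a protein of growth cones, was at 12.7, 15.3 and 10.6 CPM with GM and 6.29, 5.76 and 6.05 CPM with PIO+GM, without overlap and just outside the threshold (log2 −1.09 ± 0.233, adjusted p = 0.076), and DESeq2 called it. The medians of the supporting cell, Schwann, neuron and stria lists changed sign when 1 or more libraries were left out or another setting was used (ranges −0.18 to 0.14, −0.65 to 0.08, −0.76 to 0.01 and −1.75 to 0.19). The 3 tested red blood cell genes had higher values (median 0.39).

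For the stress and growth lists, the medians were −0.01 for 17 p53 targets, 0.02 for 21 genes of the integrated stress response, 0.00 for 20 genes of the oxidative stress response and 0.01 for 36 cell cycle genes, and none of these genes passed the adjusted test or DESeq2. The cell cycle median was 0.43 without GM library 2 and −0.26 without GM library 1, so its value rested on single libraries. The other 3 medians also changed sign over the alternatives, within −0.13 to 0.17. The lowest p-values belonged to Rrm2b, a p53-induced subunit of ribonucleotide reductase (log2 0.50 ± 0.181, adjusted p = 0.467), to Asns, asparagine synthetase (log2 0.48 ± 0.249), to Gclc, which makes the precursor of glutathione (log2 0.40 ± 0.146, adjusted p = 0.475), and to the replication helicase gene Mcm6 (log2 −0.36 ± 0.146).

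The effect of pioglitazone under gentamicin was set beside its effect without gentamicin (PIO against CTRL at 24 h), which shares no library with it and in which 25 genes passed (0.153%). All 18 genes above had the same sign there and 10 of them passed there too, and all 25 had the same sign in PIO+GM against GM. For Cpt1a the log2 difference was 1.06 with gentamicin and 1.12 without it, for Angptl4 2.67 and 3.36, for Acadl 0.72 and 0.62, and for Postn −1.69 and −1.81. Postn, for example, was at 181, 172 and 234 CPM in CTRL and 63.6, 55.4 and 47.7 CPM in PIO. Across all 16317 genes the log2 differences of both comparisons had a Spearman's rho of 0.54, which describes the genes of 12 libraries of 1 experiment and carries no p. In the test of the difference itself, no gene passed (0%; 197 genes, 1.21%, at an unadjusted p under 0.05), and the lowest adjusted p was 1; DESeq2 also called none.

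**Figure D5:**
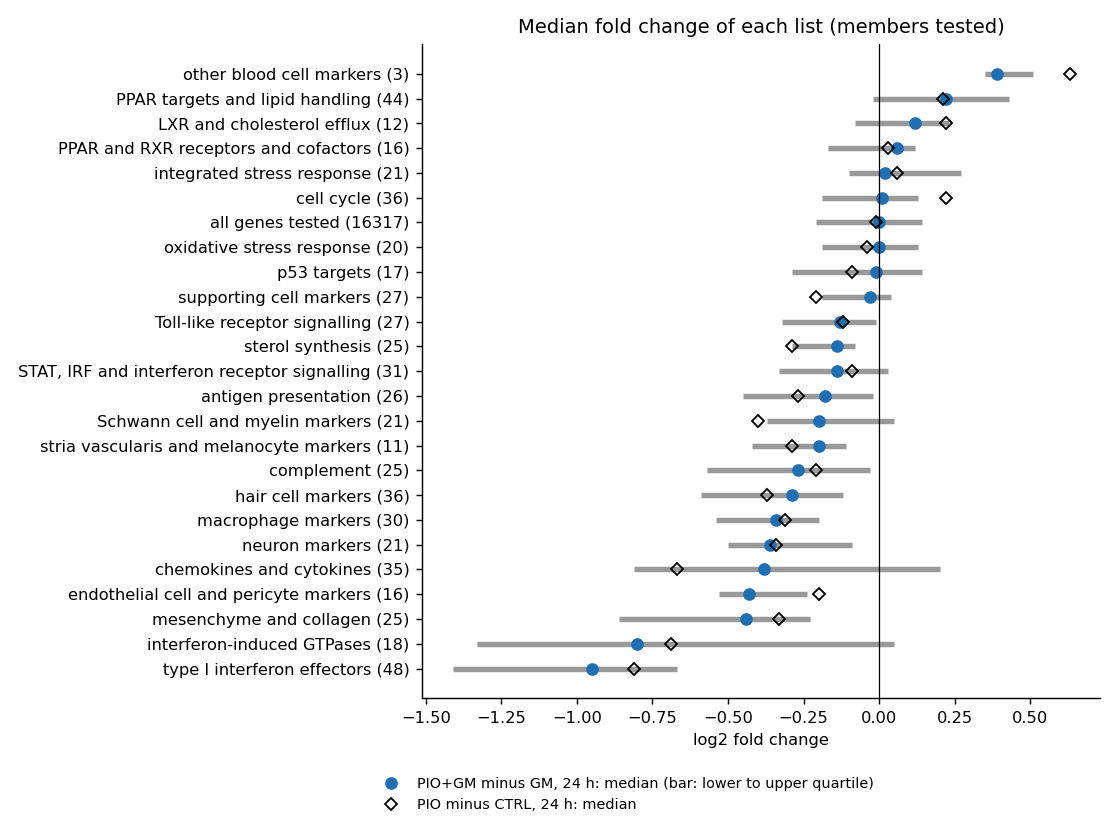
Filled circles are the median log2 fold change of each gene list for PIO+GM minus GM at 24 h, with bars from the lower to the upper quartile of its members, and open diamonds the median for PIO minus CTRL at 24 h; numbers of tested members are in parentheses. The type I interferon effectors lie at −0.95 and −0.81, the interferon-induced GTPases at −0.80 and −0.69, and the PPAR targets at 0.22 and 0.21; the Y-linked genes and the genes named by the study are not drawn.

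Without gentamicin, the type I interferon effectors had a median of −0.81 in PIO against CTRL (45 of 48 lower), the GTPases −0.69, the mesenchyme and collagen list −0.33, the chemokines and cytokines −0.67 and the PPAR targets 0.21. The HC markers had a median of −0.37 there, with 31 of 36 lower, beside −0.29 and 31 of 36 with gentamicin. The Y-linked genes had the other sign, with all 4 lower (median −0.38) and, with gentamicin, all 4 higher (median 1.38).

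Gentamicin alone against CTRL at 24 h uses the same GM libraries, so its values are only set side by side. None of the 18 genes passed there (adjusted p = 1 for each). The type I interferon effectors had a median of 0.36 and the GTPases 0.40, against −0.95 and −0.80 when pioglitazone was added to gentamicin. For Cpt1a the log2 difference was 0.06, for Postn −0.14, for Isg15 0.87 and for Ifit3 1.00.

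At 6 h, PIO+GM against GM shares no library with the 24 h comparison, and 216 genes passed (1.32%). Of the 18 genes called at 24 h, 14 had the same sign at 6 h and 5 passed. These were Cpt1a (log2 0.77 at 6 h), Acadl (0.51), Chd3 (−1.01), S100a4 (−1.63) and Fgd3 (−1.25). Angptl4 had a log2 difference of 1.41 at 6 h and Postn one of −0.25. The 4 genes of opposite sign at 6 h were Grm7, Ecm2, Egfem1 and Phyhd1.

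The interferon effectors had a median of 0.12 at 6 h. Ifit3 then was at 31.4, 69.5 and 55 CPM with GM and 110, 54.1 and 20.5 CPM with PIO+GM, a wide and overlapping spread, and Isg15 was at 9.51, 14.3 and 12.7 CPM with GM and 21.7, 9.23 and 5.67 CPM with PIO+GM. When the effect at 24 h was tested against that at 6 h, no gene passed with edgeR (0%; 663 genes, 4.06%, at an unadjusted p under 0.05), and the lowest adjusted p was 0.462, for Ecm2. DESeq2 called 1 gene. In that test 14 of the 48 interferon effectors and 11 of the 18 GTPases had an unadjusted p under 0.05.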

How the data were processed

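RNA-seq counts of 24 libraries (8 groups of 3) were used. Per the labels and the study's methods, the authors mapped single reads of stranded total RNA libraries to mm10 with STAR and deposited raw counts, the number of reads starting in any exon of a RefSeq gene as counted by QuasR; strand use and reads with several matches are not stated, so overlapping and copied genes are uncertain. The deposited table also gave gene lengths. Of 24454 Entrez identifiers, 24374 were matched to a symbol.

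The main test was the quasi-likelihood F-test of edgeR 4.0.16 in R 4.3.3, fitted to all 24 libraries with 8 group means after TMM scaling, on the 16317 genes that filterByExpr kept. Benjamini-Hochberg adjusted p-values under 0.05 counted as called, and the SE is the log2 fold change divided by the square root of F. CPM values use TMM-scaled totals, and log2 CPM a prior count of 2. CPM and 3-count floors cover counting error only; an exact test of 3 against 3 libraries cannot go below p = 0.1.

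Most genes named in the text are those called, up to 4 members of each list with the lowest p, genes named by the study, and up to 10 per direction called only with replicate numbers as a block. The rule of 4 members left out the Y-linked list and the list of genes named by the study. Other genes were named for their role, as defining markers of a cell type, or after their values were seen. The members and lists were chosen with earlier results of these data known. Alternatives included DESeq2 1.42.0, other scalings and filters, GC offsets (94.3% of genes had a GC value), a Y-linked covariate and leaving out each library. Leaving out both libraries numbered 2 was added after the data were seen. Results of 4 genes are not reported here, though counts over all genes include them.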

Additional observations from a re-analysis of the deposited data

How the results depend on the processing

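Between PIO+GM and GM at 24 h, the 18 calls became 98 with the replicate block (6 numbered blocks), 72 with the likelihood ratio test, 112 with DESeq2, 40 with the 12 libraries of 24 h only, 3 with the 6 libraries compared only, 523 with those 6 and the replicate block, 59 with the GC trend removed, 227 with the GC trend removed and the replicate block, 4 with the Y-linked covariate and 1 without both libraries numbered 2. They ranged from 1 to 8 when 1 library was left out; the cause was not tested. Other scalings and filters gave 13 to 20 calls. The replicate numbers were not taken to pair the libraries: deviations from the group means of GM and PIO+GM correlated by 0.028, 0.63 and 0.39 for numbers 1, 2 and 3, and 8 of 12 libraries of 24 h correlated best with their own number, a hint from the data only. The block kept all 18 calls and added 80, among them Pdk4, Klf11 and Eci2, which were higher, and Gli1, Igfbp6 and Folr2, which were lower.

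The difference between effects with and without gentamicin was at 0 calls under each alternative run for it, which included its own 12 libraries only and each of them left out in turn. That between 24 h and 6 h gave 1 call with the replicate block, 1 with the likelihood ratio test and 1 with DESeq2, and 0 under the others run for it. The fit without both libraries numbered 2 was run for neither.

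All 18 called genes kept their sign throughout. Of the uncalled genes followed one by one through the alternatives, which were not all genes named, 3 changed sign. Irf3 was at 0.01 with the replicate block, with library size alone and with at least 10 counts in every library, 0 with RLE factors, DESeq2 and the 6 libraries with the replicate block, 0.13 and 0.15 with the GC trend removed (without and with the block), 0.06 with the Y-linked covariate, 0.05 without both libraries numbered 2, and between −0.13 and 0.08 with 1 library left out. With 1 library left out Ccl9 lay between −0.32 and 0.04 and Alas2 between −0.17 and 0.57, and Alas2 was at −0.35 without both libraries numbered 2.

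Depth limited genes below about 1 CPM, such as Egfem1 with both drugs, where 3 counts were 0.197 to 0.251 CPM.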
